A study of Mus musculus with 6 samples.

Results

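Reg4 was 1 of the 5674 genes listed in both regional tables of this series, and it was picked by name because earlier results of these data showed it among the leading genes of enteroendocrine cells. The series profiled single epithelial cells of the mouse jejunum by MARS-seq, a plate-based method that tags each RNA molecule with a unique molecular identifier (UMI) at capture. The 6 samples came from 3 mice of a mixed CD-1:C57BL/6 background aged 120 days, with no genotype or treatment in the labels. Each small intestine was divided into 12 equal parts; part 3 gave the anterior jejunum sample and part 7 the posterior one, so each mouse gave 1 sample of each region. Cells freed from villi and from crypts were pooled 1:1, and living EpCAM-positive single cells were sorted into plates. Wells were also annotated with a cell marker, positive or negative, which the labels did not explain and which was not used. The 2 tables held 1028 anterior and 1015 posterior cells, 1640578 to 3157105 UMIs per sample, and a median of 3468 UMIs per cell. Mouse 1 supplied 568 and 511 of these cells from several plates, and mice 2 and 3 came from 1 plate each per region. All 186 well barcodes recurred in more than 1 sample, as they name positions on a plate.

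Reg4 encodes a secreted C-type lectin-like protein of the regenerating (Reg) family. In the gut it is known as a product of enteroendocrine cells and of secretory cells deep in colonic crypts that stand where Paneth cells stand in the small intestine, and the protein has been studied as an activator of EGF receptor signalling. Enteroendocrine cells are rare hormone-releasing cells of the epithelium. They include enterochromaffin cells, which make serotonin with the enzyme encoded by Tph1 and can release the tachykinin encoded by Tac1, and cells that release peptide hormones such as cholecystokinin (Cck), the incretin Gip, neurotensin (Nts) and somatostatin (Sst). Goblet cells secrete mucus, and Paneth cells secrete lysozyme and defensins.

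The Reg4 gene lies on chromosome 3 from 98222156 to 98236748 on the forward strand of GRCm38, with 6 exons in the GENCODE annotation. Levels of Reg4 across classes resembled those of the granins Chga and Chgb, structural proteins of endocrine secretory granules, as described further on, so the 250 bases before the RefSeq start of each gene are shown (build GRCm38.p6, forward strand, 5′ to 3′). Capitals mark the E-box CANNTG (N is any base), the element bound by basic helix-loop-helix factors such as those that specify secretory and endocrine cells. The Reg4 stretch is chr3:98221906-98222155, the Chga stretch chr12:102554691-102554940 and the Chgb stretch chr2:132781392-132781641.
Reg4: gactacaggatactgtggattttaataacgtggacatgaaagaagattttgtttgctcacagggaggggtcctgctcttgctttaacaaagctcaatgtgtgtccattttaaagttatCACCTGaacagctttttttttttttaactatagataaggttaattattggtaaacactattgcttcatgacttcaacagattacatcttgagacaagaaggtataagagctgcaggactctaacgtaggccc
Chga: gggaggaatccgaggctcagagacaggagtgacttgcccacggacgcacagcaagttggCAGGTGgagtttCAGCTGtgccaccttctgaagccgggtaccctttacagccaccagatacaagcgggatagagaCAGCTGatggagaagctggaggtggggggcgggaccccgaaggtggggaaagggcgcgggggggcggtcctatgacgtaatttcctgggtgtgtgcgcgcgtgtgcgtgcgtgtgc
Chgb: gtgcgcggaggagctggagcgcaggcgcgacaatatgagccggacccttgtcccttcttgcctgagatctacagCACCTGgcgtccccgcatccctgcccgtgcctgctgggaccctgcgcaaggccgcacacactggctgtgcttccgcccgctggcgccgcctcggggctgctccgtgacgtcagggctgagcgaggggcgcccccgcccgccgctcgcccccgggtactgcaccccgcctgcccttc
The Reg4 stretch held 1 E-box, CACCTG, whose first base was at -132 from the start. Chga held 3, CAGGTG at -191 and CAGCTG at -179 and -116, and Chgb held 1, CACCTG at -176. CACCTG and CAGGTG are the same site read from opposite strands, so each of the 3 stretches carried it. Among 32851 RefSeq promoters, 66.2% had an E-box in these 250 bases and 17.2% had CACCTG or CAGGTG. A match describes these letters and does not show that a factor binds there.

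Cells were grouped without Reg genes or hormones, and the groups were named by markers. Levels are given as CP10K, the UMIs of a gene per 10000 UMIs of the cell, averaged over the cells of a class in a sample. The enteroendocrine-like class (117 cells) had 7 of 7 measured markers raised. The goblet-like class (614 cells) joined cluster 1, with 9 of 10 goblet markers raised, and cluster 6, with 10 of 10, including high Zg16, Spink4 and Clca1. The Paneth-like class (121 cells) had 11 of 12 Paneth markers raised, but 9 of 10 goblet markers were raised in it too, and its cells were shallow, with a median of 918 UMIs. The other classes were enterocyte-like (873 cells), crypt progenitor-like (211 cells) and tuft-like (39 cells), and 68 cells stayed unnamed. Mice differed in their cells. Goblet-like cells numbered 235, 31 and 26 in the anterior samples of mice 1 to 3 and 276, 21 and 25 in the posterior ones. Enteroendocrine-like cells numbered 59, 7 and 6 and 33, 8 and 4. The cause of this was not tested.

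The enteroendocrine-like class held 83.1% of all Reg4 UMIs, 12327 in number, with 5.73% of the cells. Goblet-like cells held 6.6%, enterocyte-like cells 4.13%, Paneth-like cells 3.43% and crypt progenitor-like cells 2.50%. These class levels are a description without a test, since Reg4 was chosen for this pattern. In anterior enteroendocrine-like cells, mice 1, 2 and 3 had mean levels of 332, 682 and 613 CP10K, a mean of 542 ± 185 (SD, n = 3). The posterior samples had 81.1, 195 and 94.3 CP10K, a mean of 123 ± 62.2 (SD, n = 3). Every enteroendocrine-like sample lay above every sample of every other class.

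Paneth-like cells came next in order. Their anterior levels were 10.4, 6.39 and 14.4 CP10K in mice 1 to 3, a mean of 10.4 ± 3.98 (SD, n = 3). In posterior Paneth-like cells mouse 1 had 9.70 CP10K, and mouse 2 had 0 Reg4 UMIs in 10 cells, which allows a level of up to 2.55 CP10K (3 counts). Mouse 3 had a single cell there and was left out. Goblet-like cells had anterior levels of 5.63, 1.42 and 2.80 CP10K (mean 3.29 ± 2.15, SD, n = 3) and posterior levels of 1.85, 1.5 and 0.72 CP10K (mean 1.35 ± 0.58, SD, n = 3). In the anterior jejunum the goblet-like range overlapped that of enterocyte-like cells (3.63, 1.82 and 2.25 CP10K) and that of crypt progenitor-like cells (2.41, 1.33 and 1.36 CP10K), so these neighbours in the order did not differ beyond their spread. In the posterior jejunum enterocyte-like cells had 0.30, 0.84 and 0.03 CP10K and crypt progenitor-like cells 0.27, 0.08 and 0.07 CP10K. Tuft-like cells, chemosensory cells with a separate program, were lowest in the anterior samples, at 0.46 ± 0.57 CP10K (SD, n = 3).

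**Figure D1:**
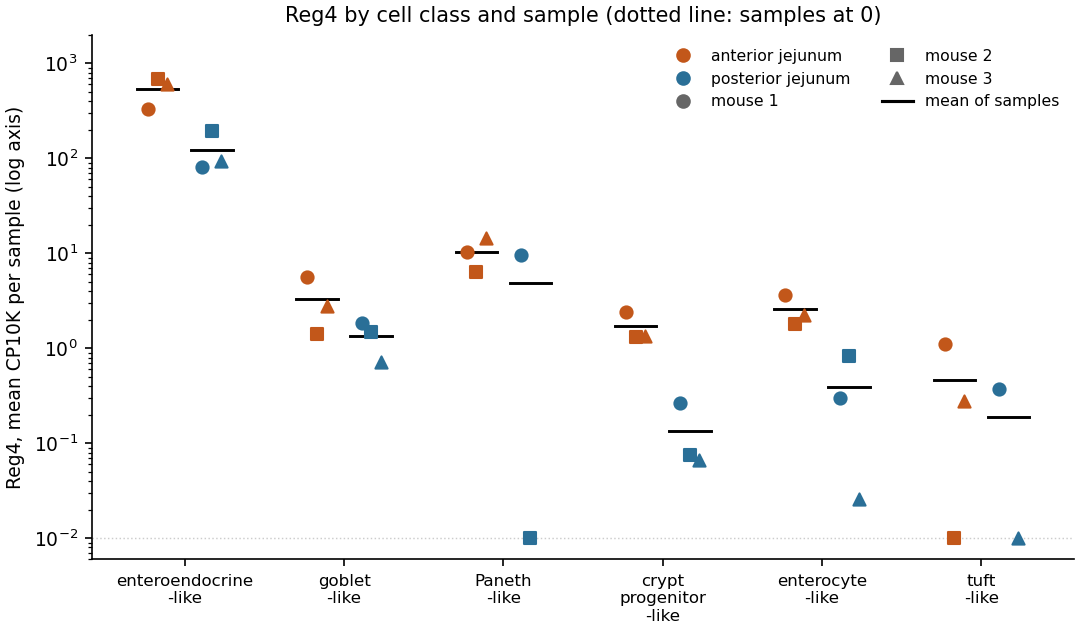
Mean Reg4 level per sample (CP10K, log axis) by cell class; each symbol is 1 mouse, colour gives the region, black bars give the mean of samples, and samples with no Reg4 UMI sit on the dotted line. The enteroendocrine-like samples, from 81.1 to 682 CP10K, lie above all samples of the other classes.

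Reg4 UMIs were present at a low level in classes with no known endocrine product, so shares of cells with a UMI were read against them. With each cell thinned to 1000 UMIs, Reg4 was seen in 55.1% of anterior enteroendocrine-like cells, 37.0% of Paneth-like cells, 33.6% of goblet-like cells, 17% of enterocyte-like cells and 16.9% of crypt progenitor-like cells. These shares pool mice that differ in level and in cell number. By mouse, the goblet-like shares were 36.8%, 17.9% and 23.1% and the enterocyte-like ones 30.2%, 15% and 10.6%, which overlap. The mean over mice was 64.1% in enteroendocrine-like, 60.6% in Paneth-like, 25.9% in goblet-like and 18.6% in enterocyte-like cells, and 1 Paneth-like cell of mouse 3 was deep enough to enter. Cells shallower than 1000 UMIs were left out: in the anterior samples 3 enteroendocrine-like, 51 Paneth-like, 15 goblet-like and 31 enterocyte-like cells, and in the posterior ones 11, 20, 44 and 23. Before thinning, the anterior shares were 70.8%, 43.6%, 57.5%, 49.6% and 71.8%, at median depths of 3617, 844, 2316.5, 6551 and 12035.5 UMIs per cell. The thinned posterior shares were 41.2%, 30.4%, 10.1%, 4.01% and 2.30% in the same order, and the shares before thinning 48.9%, 25.6%, 19.3%, 12.3% and 23.0%.

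Reg4 UMIs were also set against Chgb UMIs, class by class. In anterior enteroendocrine-like cells the ratio was 1.58, 1.54 and 1.62 in mice 1 to 3. Anterior enterocyte-like cells, in which the granin is not a known product, had ratios of 1.6, 1.37 and 1.57, from 483 Reg4 and 317 Chgb UMIs, although the clusters that make up this class gave 0.83, 2.26 and 1.59. Anterior crypt progenitor-like cells gave 1.45 in sum but ranged from 0.62 to 4.13 over mice. Goblet-like cluster 1 had 1.93 in sum, from 251 Reg4 and 130 Chgb UMIs, and 0.60 to 3.67 by mouse. Goblet-like cluster 6 stood higher, with anterior ratios of 4.98, 4.89 and 5.00 in mice 1 to 3. Its posterior ratio was 30.5, from 335 Reg4 and 11 Chgb UMIs (mouse 3 had 19 Reg4 UMIs and no Chgb UMI), where enteroendocrine-like cells had 0.30. Paneth-like cells had 5.33 in the anterior samples (2.50 to 6.50 by mouse) and 13.5 in the posterior ones, where all 365 Reg4 UMIs came from mouse 1. The other posterior ratios also lay above the enteroendocrine-like one: enterocyte-like 0.88, goblet-like cluster 1 0.88, crypt progenitor-like 0.48 and tuft-like 0.43. These ratios are a description without a test.

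**Figure D2:**
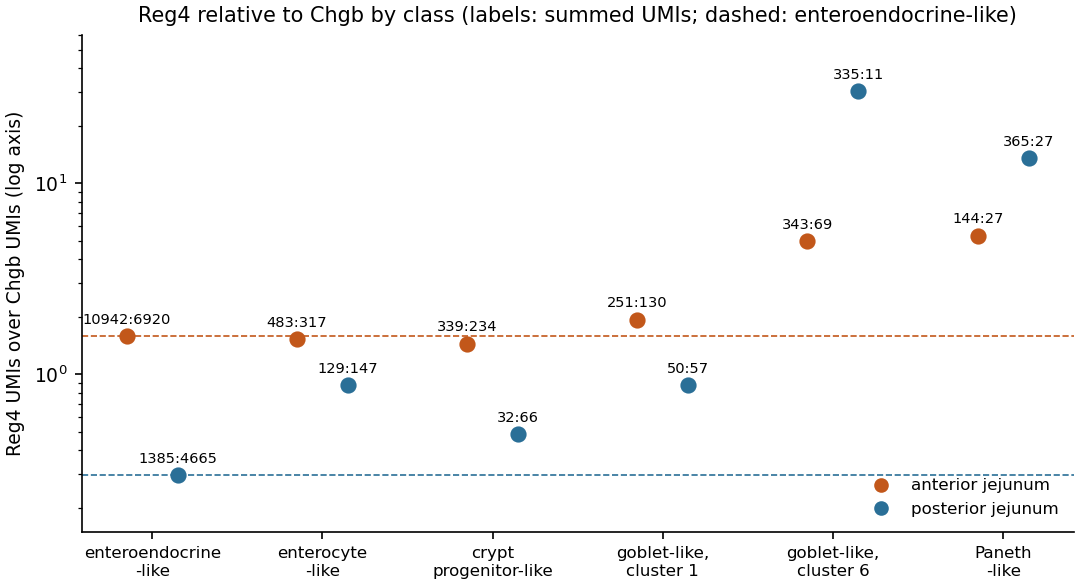
Reg4 UMIs divided by Chgb UMIs (log axis), each summed over the cells of a class or cluster in a region; labels give both sums, and dashed lines mark the enteroendocrine-like ratios of 1.58 (anterior) and 0.30 (posterior). Goblet-like cluster 6 and Paneth-like cells have the highest ratios plotted, 4.97 to 30.5, and the other posterior ratios plotted, 0.48 to 0.88, also lie above the posterior line.

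Within goblet-like cluster 6, most Reg4 came from few cells. There, 8 of 75 anterior and 11 of 63 posterior cells had at least 10 Reg4 UMIs and 10 CP10K, and they held 63.0% and 86.9% of the cluster's Reg4 UMIs. Of these cells 7 and 9 came from mouse 1, so the subset rests mainly on 1 animal. Their Reg4 ranged from 11.1 to 58.9 CP10K in the anterior and from 12.8 to 72.6 CP10K in the posterior samples. Of the 11 posterior cells, Chgb was at 0 in 8 and Chga in 10. Of the 8 anterior cells, Chgb was at 0 in 1, with a median of 1.74 CP10K against 0 CP10K in the rest of the cluster, and Chga was at 0 in 6. The part of endocrine RNA in the anterior values was not tested. The median of Spink4, a secreted peptide of goblet cells, was 198 CP10K in the 11 posterior cells and 88.5 CP10K in the other 52 cells of the cluster. The median of Retnlb, a resistin-like defence protein of goblet cells, was 38.4 CP10K against 0 CP10K, and that of the mucus protein Zg16 was 761 against 2007 CP10K. Because 9 of the 11 cells were of mouse 1, these contrasts partly compare mice. Within mouse 1, the posterior medians were 198 against 123 CP10K for Spink4, 61.9 against 1.87 CP10K for Retnlb and 802 against 1578 CP10K for Zg16. Not every gene of the crypt goblet list was higher in the posterior Reg4-rich cells. The median of Ccl6 was 31.5 against 47.6 CP10K, and 24.9 against 41.5 CP10K within mouse 1. That of Ang4 was 2.26 against 0.86 CP10K, but 0 against 0.70 CP10K within mouse 1. Depth of the 11 cells and the other 52 was similar, with medians of 9550 and 10448.5 UMIs per cell. The anterior cells differed less, with medians of 84.6 against 59.6 CP10K for Spink4 and 2519 against 2371 CP10K for Zg16. Cluster 1 had only 2 such cells among 217 anterior cells and 0 among 259 posterior cells. Its cells were shallower, with a median of 1871 UMIs against 9559.5 in cluster 6, so 10 Reg4 UMIs was a harder limit there. By level alone, 35 anterior cells of cluster 1 (16.1%) and 10 of cluster 6 (13.3%) reached 10 CP10K, which few UMIs give in a shallow cell. In the posterior samples 3 (1.16%) and 12 (19.0%) did. Over the whole goblet-like class, cells past both limits held 42.3% of the anterior and 75.6% of the posterior Reg4 UMIs.

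In the Paneth-like class, too, few cells held most of the Reg4. There, 2 of 78 anterior and 4 of 43 posterior cells reached 10 Reg4 UMIs and 10 CP10K, all in mouse 1, and they held 58.3% and 95.1% of the class's Reg4 UMIs. The 4 posterior cells had a median of 37836.5 UMIs (1176 to 41079), against 982 UMIs in the other 39. A limit of 10 Reg4 UMIs favours deep cells, so this gap in depth was partly fixed by the limit. The part of depth in the share of Reg4 UMIs was not tested. The median of lysozyme (Lyz1) was 212 CP10K in these 4 cells against 20.2 CP10K in the rest, and that of the defensin Defa17 358 against 10.9 CP10K. In the other 39 cells the goblet genes Zg16, Tff3 and Muc2 had higher medians than these, at 191, 135 and 89.2 CP10K. Spink4 was at 6.26 CP10K there, and Agr2 and Clca1 at 0. In the 76 other anterior cells Zg16 and Tff3 had medians of 210 and 201 CP10K, against 15.4 for Lyz1 and 10.2 for Defa17. The class name therefore describes most of its cells weakly. The cell with most Reg4 UMIs outside the enteroendocrine-like class, a posterior Paneth-like cell of mouse 1, had 126 of them among 40532 UMIs, with Chga and Chgb both at 0. Outside the enteroendocrine-like class 2 of 1926 cells reached 100 CP10K.

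In the anterior enteroendocrine-like class nearly all cells had either a high or a very low level of Reg4, whereas in the posterior class intermediate cells were nearly as many as high ones. Of 72 anterior cells, 30 had at least 100 CP10K, 2 lay between 10 and 100 CP10K and 40 lay under 10 CP10K, 21 of them with no UMI. The 30 cells held 99.6% of the anterior class's Reg4 UMIs, with a mean of 928 CP10K and a highest value of 3259 CP10K, against a mean of 4.09 CP10K in the others. Of 45 posterior cells, 8 had at least 100 CP10K, 7 were intermediate and 30 lay under 10 CP10K, and the 8 held 95.2% of the UMIs. The boundary of 100 CP10K was set after the values were seen; 2 anterior and 3 posterior cells lay between 50 and 200 CP10K.

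Hormone groups followed this division in the anterior jejunum, where Tph1, Tac1, Sst and Ghrl (ghrelin) were listed. In the 26 cells of the enterochromaffin group (Tph1 or Tac1 leading), Reg4 had a lowest value of 2.25, a median of 718 and a highest value of 3259 CP10K. All 4 such cells of mouse 2 and all 5 of mouse 3 had over 100 CP10K, as did 14 of 17 in mouse 1. The group's means by mouse were 871, 1192 and 736 CP10K. The 41 cells of the peptide hormone group (Cck, Gip or Nts leading) had a median of 1.31 CP10K and a mean of 87.2 CP10K, and 5 of them reached 100 CP10K. The peptide group means were 94.0 CP10K in mouse 1 and 0.66 CP10K in mouse 2, with no such cell in mouse 3. The 3 Sst-led (D) cells had a highest value of 8.71 CP10K. In 2 cells, both of mouse 1, secretin (Sct) was the sole hormone past the limits, and Reg4 was 592 and 593 CP10K. The cell of 593 CP10K also had Gip below the limits. No cell had Ghrl as its leading hormone.

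Single leading hormones gave the same division. Reg4 averaged 981 CP10K in the 17 Tph1-led cells and 731 CP10K in the 9 Tac1-led cells. It averaged 2.00 CP10K in the 16 Cck-led cells, with a highest value of 8.92, and 4.42 CP10K in the 6 Nts-led cells. The 20 Gip-led cells were mixed, with 6 above 100 CP10K and a median of 2.29 CP10K. The 5 cells of the peptide group with high Reg4 had a median of 19.95 CP10K of Gip (15.4 to 71.9), and the other 36 cells of the group a median of 22.5 CP10K (0 to 5394). Chga in those 5 cells was 144 to 299 CP10K, within the range of the Reg4-high enterochromaffin cells, 99.8 to 449 CP10K, and above the highest value in the other 36, 31.7 CP10K. Conversely, the 3 enterochromaffin cells without high Reg4 had Chga of 10.4 to 53.9 CP10K, below all 23 with it.

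Posterior cells could be grouped less finely, because Tph1 and Tac1 were not in that table and enterochromaffin cells could not be told apart there. Pyy, the peptide YY hormone, was listed in the posterior table alone. The 20 posterior cells with Sct but no other listed hormone past the limits had a median of 21.3 and a mean of 202 CP10K of Reg4, and 6 reached 100 CP10K. The 22 cells of the peptide hormone group (Cck, Gip, Nts or Pyy leading) had a median of 0 and a mean of 16.3 CP10K, and 1 reached 100 CP10K. The grouping depended on the limit: with at least 1 UMI as the limit, a Gip-led cell of 1539 CP10K entered the peptide hormone group, whose mean became 67.8 CP10K. Of 3 cells with no hormone past the limits, 1 had 205 CP10K. Among Pyy-led cells, 6 in number, the highest value was 29.5 CP10K.

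**Figure D3:**
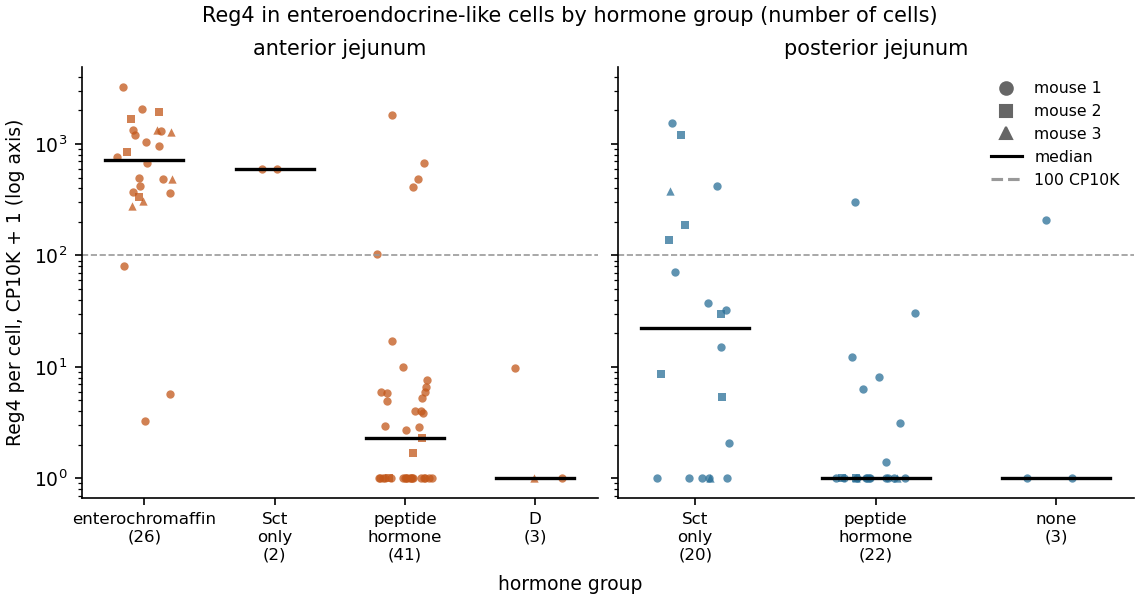
Reg4 per enteroendocrine-like cell (CP10K + 1, log axis) by hormone group in each region, with the number of cells in parentheses, the median as a black bar and 100 CP10K as a dashed line. Anterior enterochromaffin cells sit mostly above the line (23 of 26) and peptide hormone cells below it (36 of 41).

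Reg4 and Chga marked nearly the same anterior cells but not the same posterior ones. In the anterior samples all 29 cells with at least 100 CP10K of Chga also had high Reg4, which was 20 of 20 in mouse 1, 4 of 4 in mouse 2 and 5 of 5 in mouse 3. One of the other 43 cells had high Reg4. In the posterior samples 7 of 19 Chga-high cells had high Reg4 (3 of 11, 3 of 6 and 1 of 2 in mice 1 to 3), and 8 had under 10 CP10K. Mean Reg4 in Chga-high cells was 946, 1192 and 736 CP10K in the anterior samples and 218, 260 and 189 CP10K in the posterior ones, so the regions did not overlap. Chga in these cells averaged 348, 190 and 169 CP10K in the posterior samples and 229, 238 and 229 CP10K in the anterior ones, and these ranges overlapped. Chgb was less exact than Chga as a companion: 30 of 39 anterior cells with at least 100 CP10K of Chgb had high Reg4.

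**Figure D4:**
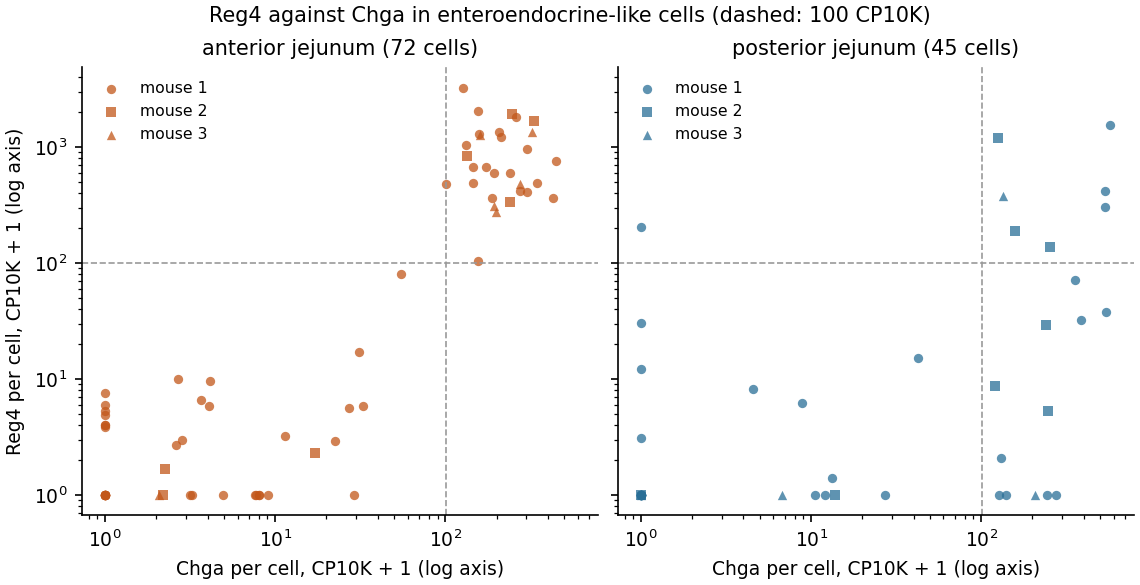
Reg4 against Chga in each enteroendocrine-like cell (CP10K + 1, log axes) by region; symbols give the mouse and dashed lines mark 100 CP10K. All 29 anterior cells right of the vertical line lie above the horizontal one, and 7 of 19 do in the posterior jejunum.

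Other endocrine genes of the anterior class divided unevenly between the enterochromaffin group and the remaining 46 cells. Chgb averaged 468 against 98.9 CP10K, Chga 209 against 35.3 CP10K and Tph1, which defines the group, 47.5 against 3.93 CP10K. Ddc, the enzyme of the last step to serotonin, averaged 12.4 against 6.79 CP10K, and the granule protein Resp18 12.8 against 4.03 CP10K. Scg2 (secretogranin) ran the other way, at 0.04 against 19.4 CP10K, while Pcsk1n, an inhibitor of prohormone convertase, was at 15.2 against 14.6 CP10K. Scg5 averaged 9.19 against 6.05 CP10K and the carboxypeptidase Cpe 5.09 against 8.09 CP10K, but both directions held in mouse 1 alone and were the opposite in mice 2 and 3. The directions of Chga, Chgb and Tph1 held in each of the 3 mice, and those of Ddc, Resp18 and Scg2 in 2 of 3; mouse 3 had 1 cell outside the enterochromaffin group. Cells of 1 sample share their source, so these means describe cells and not replicates.

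The regional difference of Reg4 was tested over samples. No plate held cells of both regions, so a difference between regions cannot be told apart from one between plates. In enteroendocrine-like cells Reg4 was higher in the anterior jejunum by 2.18 ± 0.31 (SE) on the log2(CP10K + 0.2) scale (95% interval 1.58 to 2.78; limma adjusted p = 5.42e-09 over 4549 genes), in 3 of 3 mice. Limma drew the variance behind this SE toward a trend over all genes. Its p-value therefore does not measure the spread of Reg4 between the 3 mice alone. All 3 anterior samples lay above all 3 posterior ones, and the exact two-sided permutation test over samples gave p = 0.1, the smallest possible with 3 against 3 (0.167 adjusted over the 5 classes). The permutation test relabelled samples freely. Both it and the main limma fits left the pairing by mouse aside. By limma 4 of the 4549 genes were called (0.0879%), 3 of them higher (0.0659%) and 1 lower (0.022%) in the anterior, and 174 genes (3.83%) had an unadjusted p under 0.05. The others, named after their values were seen, were Gip (log2 4.39) and Reg1 (4.83), also higher, and Nts, which was lower (-3.73). The median difference of all genes in this class was 0.27. The granins did not follow Reg4: Chga differed by 0.29 (95% interval -0.43 to 1.00, limma adjusted p = 0.970) and Chgb by 0.15 (-0.41 to 0.72, limma adjusted p = 0.984). Mice 2 and 3 had 4 to 8 enteroendocrine-like cells per region, and the 206 Reg4 UMIs of posterior mouse 3 came from 1 of its 4 cells. Without posterior mouse 3 the difference was 2.04 and no longer called (limma adjusted p = 0.0799). Without the cell of most Reg4 UMIs in each sample, a setting added after seeing the data, the difference was 5.87. That setting left posterior mouse 3 with no Reg4 UMI in this class, so the pseudocount set its value. It removed 1 of 4 to 8 cells in mice 2 and 3, against 1 of 59 or 33 cells in mouse 1.

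Both the share of Reg4-high cells and the mean level within them were higher in the anterior than in the posterior sample of each mouse, from few posterior cells. High cells made up 35.6%, 57.1% and 83.3% of the anterior class in mice 1 to 3 and 12.1%, 37.5% and 25.0% of the posterior class; the share was higher in the anterior sample of each mouse, although the regions overlapped. Mean Reg4 in these high cells was 924, 1192 and 736 CP10K in the anterior samples and 617, 506 and 377 CP10K in the posterior ones, which did not overlap. These means rest on 21, 4 and 5 anterior but only 4, 3 and 1 posterior cells, picked by a limit on Reg4 itself. These are descriptions without a test.

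In the other classes no regional difference of Reg4 was called by the main limma fits, which left the pairing by mouse aside. For goblet-like cells the difference was 1.05 ± 0.61 (SE; 95% interval -0.22 to 2.32; limma adjusted p = 0.997), with 1 of 4243 genes called (0.0236%), Reg1, and 131 (3.09%) at an unadjusted p under 0.05. Its exact permutation p was 0.3. Split by cluster, cluster 1 had 5.42, 1.12 and 3.26 CP10K in the anterior samples and 0.70, 0.72 and 0.26 CP10K in the posterior ones, whereas cluster 6 had 6.44, 1.70 and 2.18 against 8.42, 2.75 and 1.08 CP10K. In cluster 1 the regions did not overlap, and in cluster 6 they did. Chgb did not overlap between regions in either cluster. Its means in cluster 1 were 1.94 ± 0.79 CP10K in the anterior and 0.89 ± 0.44 CP10K in the posterior samples (SD, n = 3 each). In cluster 6 they were 0.70 ± 0.35 and 0.15 ± 0.15 CP10K. The split by cluster is a description without a test, and the part of endocrine RNA in the cluster 1 values was not tested. Paneth-like cells gave 2.84 ± 1.19 (SE; 95% interval 0.51 to 5.16; limma adjusted p = 0.963; 5 samples), with 1 of 4066 genes called (0.0246%), Reg1, and 97 (2.39%) at an unadjusted p under 0.05. That value ranged from 0.02 without posterior mouse 2 to 5.65 without posterior mouse 1.

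Crypt progenitor-like cells had a difference of 2.50 ± 0.42 (SE; limma adjusted p = 0.0893), with 0 of 4928 genes called (0.0%) and 233 (4.73%) at an unadjusted p under 0.05. With the mouse as a block it was called (limma adjusted p = 0.0332). Enterocyte-like cells had 2.45 ± 0.54 (SE; limma adjusted p = 0.753), with 0 of 4966 genes called (0.0%) and 217 (4.37%) at an unadjusted p under 0.05; the value was 0.93 with finer clusters. In both classes the 3 anterior samples lay above the 3 posterior ones (exact permutation p = 0.1 in each). Chgb was at 2.24 against 0.65 CP10K in enterocyte-like cells (log2 1.72, limma adjusted p = 0.999), with 3 of 3 mice higher in the anterior. In crypt progenitor-like cells Chgb was at 2.37 against 0.62 CP10K (1.37, limma adjusted p = 0.997), with 2 of 3 mice higher and overlapping regions. Neither passed the test, and the part of RNA from endocrine cells in these values was not tested. The regional difference was 1.13 ± 0.63 (SE; 95% interval -0.17 to 2.43) larger in enteroendocrine-like than in goblet-like cells, which was not called (limma adjusted p = 0.905; 0 of 4705 genes called (0.0%), 230 (4.89%) at an unadjusted p under 0.05).

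**Figure D5:**
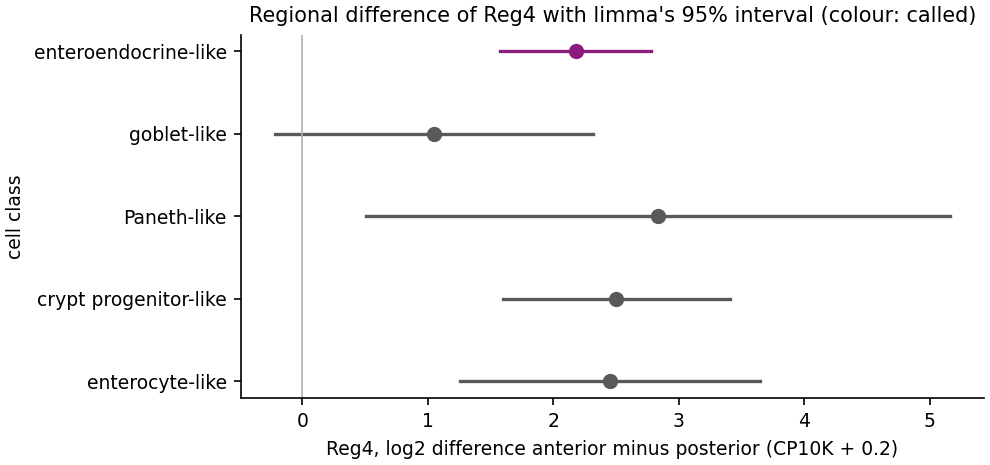
Log2 difference of Reg4, anterior minus posterior (CP10K + 0.2), in 5 cell classes, with points for limma's estimate and bars for its 95% interval. The enteroendocrine-like difference, 2.18, was called and is coloured, and the others were not called in these fits, which left the pairing by mouse aside.

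Reg4 differed from its relatives in where it was expressed. Of 7 Reg family genes on the list, 5 were in both tables: Reg1, Reg3a, Reg3b, Reg3g and Reg4. Reg3b and Reg3g encode antimicrobial lectins, and Reg1 a related secreted lectin. Reg3b averaged 90.6 ± 19.7 CP10K in anterior and 200 ± 125 CP10K in posterior enterocyte-like cells (SD, n = 3), but 7.5 ± 1.4 and 31.4 ± 19.5 CP10K in enteroendocrine-like cells. Reg3g likewise averaged 43.5 and 109 CP10K in enterocyte-like cells against 3.40 and 14.9 CP10K in enteroendocrine-like cells. Reg1 averaged 47.2 ± 35.6 CP10K in anterior enterocyte-like cells (SD, n = 3), 29.9 CP10K in Paneth-like cells and 5.96 CP10K in enteroendocrine-like cells, and at most 1.66 CP10K in any of these classes in the posterior samples. Reg3a stayed under 10 CP10K in each of these classes. Thus Reg4 was the sole member of the 5 with its highest level in enteroendocrine-like cells, in both regions. Between regions, members were called in 4 of the 25 pairs of class and member tested, all higher in the anterior: Reg1 in enteroendocrine-like, goblet-like and Paneth-like cells and Reg4 in enteroendocrine-like cells. Of all genes, 0.0879% were called in enteroendocrine-like, 0.0236% in goblet-like, 0.0246% in Paneth-like and 0.0% in the other classes. The count fell to 1 without anterior mouse 2 or anterior mouse 3 and to 2 without posterior mouse 1. The medians of the 5 differences ran from -0.32 in Paneth-like cells to 0.41 in enterocyte-like cells, beside medians of all genes from 0.02 to 0.27.

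Over 34 points of class and sample, the genes whose log2 levels were most like Reg4 among 3514 compared were Chgb (Pearson r = 0.92), Chga (0.89), Asph (0.84), Gstt1 (0.81), Syt7 (0.80), Aplp1 (0.76), Krt7 (0.76), Sct (0.73), Bex3 (0.72) and Ece1 (0.72). The points share libraries and depth within a sample, and most of the likeness came from the enteroendocrine-like points: over the 28 other points r was 0.66 for Chgb, 0.44 for Chga and -0.12 for Sct. Chga and Chgb were not withheld from the clustering that formed the enteroendocrine-like class. Reg4 was chosen for its high level there, so its likeness to these granins across classes was partly fixed in advance. Gstt1, a glutathione transferase, was 15.1 CP10K in anterior and 3.20 CP10K in posterior enteroendocrine-like cells. Syt7, a synaptotagmin of granule release, was 9.07 and 16.1 CP10K there.

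The other lists had 2 to 8 members tested per class and 0 called between regions by limma in any of the 5 classes. As at most 0.0879% of all genes were called in a class, a count of 0 in lists of this size says nothing particular of them. Of 17 secretory transcription factors 7 were in both tables. Atoh1, which starts the secretory lineage, averaged 2.11 CP10K in anterior goblet-like cells and 0.04 CP10K in enteroendocrine-like cells, and Spdef, a goblet cell factor, 2.59 and 0.05 CP10K. Sox4 showed the reverse, at 0.30 and 4.63 CP10K. Of 12 crypt goblet and deep secretory genes 8 were in both tables; Spink4 averaged 43.5 CP10K in anterior goblet-like, 18.0 CP10K in Paneth-like and 1.81 CP10K in enteroendocrine-like cells. Cd24a, a surface marker of Paneth and endocrine cells, was 6.10 CP10K in enteroendocrine-like and 39.3 CP10K in tuft-like cells of the anterior. Of 10 EGF receptor pathway genes 3 were in both tables, the receptors Erbb2 and Erbb3 and the ligand Hbegf. Erbb3 averaged 1.81 CP10K in anterior enterocyte-like and 0.47 CP10K in enteroendocrine-like cells, and Egfr itself, listed in the anterior table alone, at most 0.99 CP10K in any class. Of the 12 enterochromaffin genes 3 (Ddc, Chga and Chgb) were in both tables.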

How the data were processed

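Levels of single epithelial cells were measured in 3 anterior and 3 posterior jejunum samples. The deposited values were log2 expression, made by the authors from UMI counts; the submitters' processing notes name bcl2fastq, UMI-tools 1.0.0, cutadapt 1.18, STAR 2.6.1b, R 3.5.1 and builds GRCm38 and mm10. The values fitted log2 of UMIs per size factor plus 1, less a linear correction per gene; undoing it gave whole UMIs for 100.0% of values in both tables (tolerance 0.01).

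CP10K was computed over the 5674 shared genes, which held 98.0% of UMIs. Cells were clustered (scanpy 1.11.5, Leiden resolution 1, 1500 variable genes) without Reg and hormone genes, and clusters were named by listed markers with at least 3 measured and raised. No doublet caller was run. Of 3348 single-cell wells 2043 cells were in the tables. Hormone groups needed 3 UMIs and 10 CP10K. Class means per sample with at least 3 cells were tested with limma 3.58.1 on log2(CP10K + 0.2), leaving out genes averaging under 0.2 CP10K, with Benjamini-Hochberg adjustment at 0.05; the script was tested on simulated data. Limma's SEs, intervals and p-values rest on the spread between samples, with the variance of each gene drawn toward a trend over all genes. The limit for a count of 0 covers counting error only, and shares of cells are given without intervals.

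Samples pair by mouse, since the labels give both regions of each animal. The main limma fits left this pairing aside, and the mouse entered as a block in another setting. Correlations of same-mouse deviations over genes were 0.01 to 0.54 in 14 pairs of class and mouse. Genes named are Reg4, its family, the hormones, the 10 genes most like Reg4, the 10 highest endocrine genes and up to 4 members of each other list. Reg4 and all lists were chosen with earlier results of these data known.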

Additional observations from a re-analysis of the deposited data

How the results depend on the processing

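Of 155 values under other settings, 131 kept their direction and their side of the threshold, or moved by less than the spread between mice, 19 moved further, 1 was weaker, 1 stronger and 3 reversed. The enteroendocrine-like regional difference ranged from 1.93 to 2.56 when 1 sample was left out. Without the cell of most Reg4 UMIs in each sample, a setting added after seeing the data, it was 5.87. Posterior mouse 3 then had no enteroendocrine-like Reg4 UMI, so the pseudocount set its value. In that setting the excess over the goblet-like difference was 4.01 in place of 1.13 and still not called (limma adjusted p = 0.913). The goblet-like difference was 1.86 there. With a pseudocount of 1 CP10K the differences were 1.73 in Paneth-like, 1.23 in crypt progenitor-like and 1.37 in enterocyte-like cells. In crypt progenitor-like cells, the paired analysis, with the mouse as a replicate block, left the difference at 2.50 and made it called; the block changed no other call of Reg4. Class and member pairs called for the Reg family numbered 4, but 2 with no filter, 2 with summed UMIs and 1 to 4 without 1 sample.

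As log2 differences, enteroendocrine-like minus goblet-like was 7.41 in the anterior, and 3.99 in mean deposited log2 values. In the posterior it was 6.28, but 7.21 in thinned cells, 2.16 in deposited values and 3.25 without the highest cells. Without those cells posterior mouse 3 had no enteroendocrine-like Reg4 UMI. Anterior goblet-like minus enterocyte-like was 0.19, with 0.91 for summed UMIs, 0.69 in thinned cells and -0.013 to 0.45 without 1 sample. In the posterior it was 1.59, but 0.50 in thinned cells, 0.071 at Leiden resolution 1.5, 0.18 in deposited values and 0.70 without the highest cells. Paneth-like minus enterocyte-like was 1.91 in the anterior, with 2.53 for summed UMIs and 0.78 in deposited values. In the posterior it was 0.97, -1.46 at Leiden resolution 1.5 and -2.37 to 4.31 without 1 sample. Anterior enterochromaffin minus peptide hormone cells gave 3.36, and 3.16 to 10.09 without 1 sample; posterior Sct cells minus peptide hormone cells gave 3.62, and 3.30 to 10.24. With at least 1 UMI of the hormone group the posterior value was 1.43, and with at least 10 UMIs and 30 CP10K the anterior one was 5.05. The cause of these shifts was not tested. At least 10 cells per sample left 1 enteroendocrine-like sample per region, so that fit was not run for the class. Counts of 4 to 8 enteroendocrine-like cells limit mice 2 and 3.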

Other observations

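Plates of mouse 1 gave a further view of enteroendocrine-like Reg4 within regions. The 2 anterior plates had mean levels of 258 CP10K (34 cells) and 432 CP10K (25 cells), and the 3 posterior plates 77.1 CP10K (11 cells), 115 CP10K (14 cells) and 27.4 CP10K (8 cells), so each anterior plate lay above each posterior plate of that mouse. Median depth on the posterior plates was 3543, 1034.5 and 646.5 UMIs per cell, and the shallowest plate had the lowest level. As no plate held both regions, plate and region cannot be told apart here.

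Retnlb in goblet-like cluster 6 differed between mice, as the Reg4-rich cells of that cluster did. Its mean was 24.0 CP10K in anterior and 51.5 CP10K in posterior cells of mouse 1, and at most 0.89 CP10K in mice 2 and 3. Ang4, a Paneth and goblet cell ribonuclease, was instead highest in mouse 2, at 10.9 CP10K in anterior and 55.4 CP10K in posterior cells of the cluster.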
